A study of Mus musculus with 12 samples.

Results

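The genes described here are 9 enzymes with which the liver breaks down amino acids. They were chosen by name, with no measured value in the rule, as the Ensembl rows of the deposited gene table that map to Tat, Hpd, Hgd, Fah, Tdo2, Hal, Sds, Gpt and Gpt2. All 9 were found among the 49398 genes of the table, and all 9 were among the 13814 genes that had enough reads to be tested. Their levels were compared in the livers of 12 C57BL/6J wild-type mice aged 9 months that ate an AIN-93G chow for 8 weeks. The chow held no added oil (control), 1% (w/w) or 5% (w/w) of a concentrate of very-long-chain polyunsaturated fatty acids (VLCPUFA), and all mice were fasted for 5 hours and euthanized with tribromoethanol before the liver was taken. Each diet had 4 libraries, 2 from females and 2 from males. The control livers are N979 and N980 (females) and N967 and N968 (males), the 1% livers are N983 and N984 (females) and N971 and N972 (males), and the 5% livers are N987 and N988 (females) and N975 and N976 (males). The labels do not give the hour at which livers were taken, and they do not say in so many words that each library is a separate mouse, so the p-values measure the spread between these libraries.

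The liver is the main site at which surplus amino acids are taken apart. Tat, Hpd, Hgd and Fah act one after another on tyrosine. Tyrosine aminotransferase (Tat) removes the amino group, and hydroxyphenylpyruvate dioxygenase (Hpd) makes homogentisate. Homogentisate dioxygenase (Hgd) opens the ring, and fumarylacetoacetate hydrolase (Fah) makes the last cut, to fumarate and acetoacetate. Tdo2, tryptophan dioxygenase, begins the kynurenine pathway, Hal, histidine ammonia-lyase, begins histidine breakdown, and Sds, serine dehydratase, turns serine into pyruvate. Gpt and Gpt2 are the cytosolic and the mitochondrial alanine transaminase. Transcription of Tat, Tdo2 and Sds is known to be raised by glucocorticoids, and that of Tat and Sds by glucagon, in fasting and on protein-rich food; several of these genes also vary with the time of day.

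The values are estimated read counts scaled to the effective library size as CPM, with edgeR's trimmed mean of M-values (TMM). Library totals ran from 5291385 to 15674130 reads, and the 9 genes had between 357 and 27190 reads in a library, so the spread between livers and not the read number limits their precision. The control liver N979 stood apart: 24.8% of its reads from all other genes lay on transcripts without a protein-coding annotation, against 6.82% to 13.7% in the other 11 livers, and it had the lowest total. The 6 hepatocyte markers (such as Alb and Apoa1) summed to between 97173 and 189396 CPM in every liver. Of 4 exocrine pancreas markers, Prss2 and Pnlip were at 0 in all livers. The 4 summed to at most 0.363 CPM in a control liver, 0.539 CPM in a 1% liver and 0.232 CPM in a 5% liver. Clock genes differed between the diets. Dbp, a clock output factor, was at 0.157 to 1.10 CPM in the control livers and at 12.7 to 40.0 CPM in the 5% livers. In the 1% livers it was at 1.62 to 19.99 CPM. At 5% against control, 5 of the 7 clock genes listed passed the test, against 2.46% of all genes. Of these, Dbp and Per3 were higher and Bmal1, Npas2 and Cry1 lower. At 1% against control none passed, but 6 of the 7 had an unadjusted p below 0.05 by edgeR's test, against 11.1% of all genes. Whether the clock difference has a part in any enzyme difference below was not tested. In a piece of liver, fewer cells of a type and less RNA per cell cannot be told apart.

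Per kilobase of its main transcript, Hpd was the most abundant of the 9 in the control livers, at 1604 ± 677 CPM per kb (SD, n = 4). Tat followed at 712 ± 188, Fah at 454 ± 86.3 and Hgd at 407 ± 41.1 CPM per kb. Tdo2 (214 ± 49.2), Sds (114 ± 66.2), Gpt (107 ± 41.3), Gpt2 (103 ± 10.8) and Hal (60.1 ± 31.2) came lower. Fah and Hgd, and Sds, Gpt and Gpt2, lay closer together than the larger of their SDs. All reads of a gene were divided by the length of its main transcript alone. That transcript held 48.2% of the reads of Gpt, 58.7% of Tdo2, 58.7% of Hal, 70.7% of Hgd and 83.3% of Sds, so their places are approximate. In the 5% livers Hpd was still first, at 900.3 ± 127 CPM per kb, but Tat stood in place 5 at 159 ± 151 and Sds last at 34.2 ± 8.74 CPM per kb. Tat and Sds were the 2 members whose place in this order moved most. At 1% the order differed from that of the control livers in the exchange of Tat and Fah, at 444 ± 370.3 and 471 ± 36.8 CPM per kb.

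At 5% of oil, all 9 enzymes had a lower fitted level than in the control livers, but none passed the test over all genes. The log2 fold changes ran from -2.18 (Tat) to -0.16 (Tdo2), with a median of -0.61 against 0.013 over all genes tested. A fold change below 0 was fitted for 48.5% of all genes. With edgeR's quasi-likelihood test and Benjamini-Hochberg adjustment, 0 of 9 had an adjusted p below 0.05, where 2.46% of all genes did and 1.27% did with a lower level. Hgd (adjusted p = 0.0518) and Sds (adjusted p = 0.0628) came nearest. Without adjustment 5 of 9 had a p below 0.05 (Tat, Hpd, Hgd, Fah and Sds), against 14.6% of all genes and 7.41% in the lower direction. In Tat, Hgd and Sds every 5% liver lay below every control liver, a pattern that 2.98% of all genes showed; no enzyme showed the opposite pattern (3.11% of all genes). Other tools called some of them: DESeq2 called Hpd, Hgd and Sds (and 5.42% of all genes), limma voom called Hgd (2.48% of all genes), and limma on the deposited CPM called Tat (4.04% of its genes). Single livers moved this count too. It was 1 without N967 (Sds, adjusted p = 0.0261; 2.23% of all genes), 1 without N984 (Tat, adjusted p = 0.0386; 2.07%) and 2 without N975 (Tat and Sds, adjusted p = 0.0111 and 0.0438; 3.60%), all by edgeR's test.

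**Figure D1:**
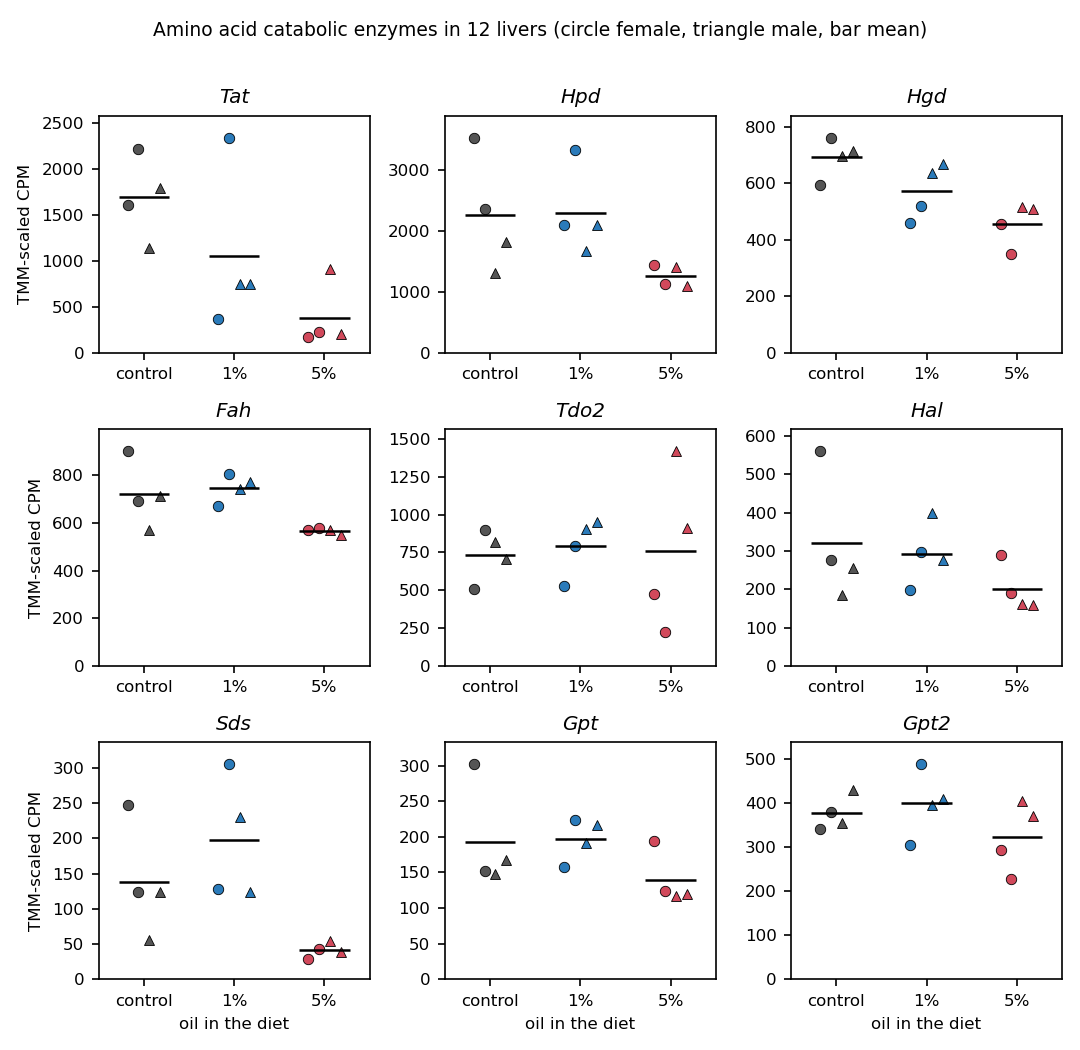
TMM-scaled CPM (vertical axes, each from 0) of the 9 enzymes in the 12 livers by diet, with circles for females, triangles for males and a bar at the mean of 4 livers. Tat, Hgd and Sds show no overlap between the 5% and the control livers, while the 5% livers of Tdo2 span a wider range than the other 2 diets.

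Of the 9 enzymes at 5% of oil, Tat had the largest difference from control and the largest coefficient of variation (94.9%). Its level in the control livers was 1605, 2219, 1145 and 1799 CPM (N979, N980, N967, N968). In the 1% livers it was 372, 2346, 752 and 746 CPM (N983, N984, N971, N972), and in the 5% livers 169, 221, 916 and 208 CPM (N987, N988, N975, N976). All 5% livers lay below all control livers, with the male N975 far above the other 3, and the 1% livers reached from below the control range to above it. The means were 1692 ± 446 CPM for control, 1054 ± 879.5 for 1% and 378 ± 359 for 5% (SD, n = 4 each). The fitted difference at 5% was -2.18 ± 0.71 on the log2 scale (SE), 4.54-fold lower, with a 95% interval of -3.76 to -0.60 and an adjusted p of 0.165 by edgeR's test. Leaving out N975 gave -3.12. Tat is the step that commits tyrosine to breakdown.

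Hpd, the enzyme missing in one of the inherited tyrosinemias, differed less. Its levels were 3525, 2355, 1310.5 and 1816 CPM in the control livers, 2092, 3325, 1662 and 2095 CPM at 1%, and 1430.3, 1120.2, 1406 and 1099 CPM at 5%, in the same order of livers. The 5% livers were close to each other and overlapped with the control male N967 only. The fitted difference was -0.76 ± 0.24 (log2, SE), with a 95% interval of -1.27 to -0.25 and an adjusted p of 0.118 by edgeR's test.

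Hgd, the enzyme missing in alkaptonuria, was the member with the smallest p at 5%. Its control levels were 596, 762, 697 and 713 CPM, its 1% levels 459, 519.5, 637 and 669 CPM, and its 5% levels 455, 348, 518 and 509 CPM. No 5% liver reached the lowest control liver, and at 1% both females lay below both males. The difference at 5% was -0.61 ± 0.15 (log2, SE), 1.53-fold lower, with a 95% interval of -0.94 to -0.28. Its adjusted p of 0.0518 by edgeR's test lay just above the threshold, and it ran from 0.0601 to 0.180 when single livers were left out.

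Fah, the enzyme missing in the hepatorenal form of tyrosinemia, had the smallest difference of the 4 tyrosine enzymes. It was at 902, 692, 572 and 715 CPM in the control livers, at 669, 806, 741 and 770.4 CPM at 1%, and at 568, 579.6, 569 and 547 CPM at 5%. The 5% livers spanned a narrow range (566 ± 13.6 CPM, SD, n = 4) that met the control range only at N967. The fitted difference was -0.34 ± 0.15 (log2, SE; adjusted p = 0.321 by edgeR's test). Over the 4 tyrosine enzymes the median difference at 5% was -0.69 and all 4 were below 0.

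Since the 4 tyrosine enzymes all lay lower at 5%, the stretch of genome just before each start is shown for comparison of their promoters. The sequences are from RefSeq on GRCm38.p6, an earlier build than the GRCm39 named for these data, and run 5′ to 3′ on the gene's strand up to the base before the start. Capitals mark matches to the TATA box, the CCAAT box or a C/EBP-type motif on either strand, whose letters follow after the sequences.

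Tat (chr8:109990186-109990435, plus strand): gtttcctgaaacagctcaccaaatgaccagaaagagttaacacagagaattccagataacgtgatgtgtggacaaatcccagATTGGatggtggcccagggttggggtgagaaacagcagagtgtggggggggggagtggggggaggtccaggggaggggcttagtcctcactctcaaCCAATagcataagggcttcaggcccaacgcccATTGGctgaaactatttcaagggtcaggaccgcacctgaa
Hpd (chr5:123182724-123182973, minus strand): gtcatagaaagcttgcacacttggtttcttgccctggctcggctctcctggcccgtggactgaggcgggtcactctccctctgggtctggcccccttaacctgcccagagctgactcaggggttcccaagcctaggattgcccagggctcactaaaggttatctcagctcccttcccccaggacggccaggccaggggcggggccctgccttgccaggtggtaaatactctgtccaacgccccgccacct
Hgd (chr16:37579903-37580152, plus strand): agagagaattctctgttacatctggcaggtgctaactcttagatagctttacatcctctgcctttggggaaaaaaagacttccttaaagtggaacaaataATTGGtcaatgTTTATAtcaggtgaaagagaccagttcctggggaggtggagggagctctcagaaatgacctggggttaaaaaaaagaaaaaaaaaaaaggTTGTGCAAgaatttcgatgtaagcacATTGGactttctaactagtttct
Fah (chr7:84605943-84606192, minus strand): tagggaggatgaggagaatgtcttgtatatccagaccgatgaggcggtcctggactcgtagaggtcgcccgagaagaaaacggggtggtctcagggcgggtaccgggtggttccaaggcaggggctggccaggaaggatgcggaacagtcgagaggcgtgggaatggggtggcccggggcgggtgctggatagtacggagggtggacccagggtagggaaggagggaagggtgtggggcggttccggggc

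Entries existed for 7 of the 9 enzymes (Tat, Hpd, Hgd, Fah, Tdo2, Hal and Gpt2). In these windows the CCAAT box (CCAAT, found in 33.8% of all 32851 promoter windows of this length) was present in 4 of the 7: 3 times in Tat, 72 to 68, 40 to 36 and 168 to 164 bases before the start, 2 times in Hgd, and in Tdo2 and Hal. The TATA box (TATAAA, 12.4% of windows) was found in Tdo2, Hal and Hgd. The C/EBP-type motif (TTGCNNAA, 9.56% of windows) was found in Hal and in Hgd, where it lies 49 to 42 bases before the start and overlaps no other match. Of the other motifs searched on both strands, none was present in any of the 7 windows: the cAMP response element (TGACGTCA, 1.55% of windows) and its core (TGACG, 17.8%), single arms of the sites of the glucocorticoid receptor (TGTTCT, 16.1%), HNF1 (GTTAAT, 6.43%) and HNF4 (CAAAGT, 12.6%), the E-box (CACGTG, 6.02%) and the D-box (TTATGTAA, 0.819%). Hpd and Fah held no match to any of the motifs searched. A match is a run of letters and not a site, and sequence farther away was not searched.

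Tdo2 did not follow the other enzymes. Its levels were 509, 899, 817 and 706 CPM in the control livers and 529.6, 792, 908 and 949 CPM at 1%. At 5% the females N987 and N988 had 473 and 221 CPM and the males N975 and N976 had 1423 and 915 CPM. The 5% females lay below both control females and the 5% males above both control males, so the group mean (758 ± 528 CPM, SD, n = 4) was close to that of the controls (733 ± 169). The fitted difference was -0.16 ± 0.36 (log2, SE; adjusted p = 0.912 by edgeR's test), with a 95% interval of -0.95 to 0.63. It was above 0 without N980 (0.15) or without N988 (0.18).

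Hal was at 562, 276, 186 and 255 CPM in the control livers, at 198, 298, 399.7 and 276 CPM at 1%, and at 289, 189.7, 163 and 159 CPM at 5%. The highest value was that of N979, and the control and 5% ranges overlapped. The difference at 5% was -0.66 ± 0.31 (log2, SE; adjusted p = 0.359 by edgeR's test). The 3 enzymes that follow Hal in histidine breakdown had differences of like size: Uroc1, urocanate hydratase, had -0.70 ± 0.18 (adjusted p = 0.0616) with every 5% liver below every control liver. Amdhd1, the imidazolonepropionase, had -0.62 ± 0.24 (adjusted p = 0.223), and Ftcd, which passes the carbon on to folate, had -0.52 ± 0.20 (adjusted p = 0.227), all by edgeR's test. None of the 4 histidine genes passed the test at 5% against control, while the slope over the doses was called for Uroc1 (-0.16 ± 0.037 per percent of oil, adjusted p = 0.0453, edgeR's test).

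Sds was the member that fell between the 2 doses. Its levels were 248, 124, 56.0 and 124 CPM in the control livers, 128, 306, 231 and 124 CPM at 1%, and 28.7, 43.4, 54.2 and 38.9 CPM at 5%. Every 5% liver lay below every liver of the other 2 diets, the nearest being the control male N967. Against the 1% livers the difference was -2.22 ± 0.42 (log2, SE), 4.66-fold lower, with a 95% interval of -3.15 to -1.30 and an adjusted p of 0.0390 by edgeR's test. Against the control livers it was -1.67 ± 0.42, 3.18-fold lower, with an adjusted p of 0.0628. The call against 1% was lost without any 1 of N968, N984, N971, N972, N987, N988 or N976, with values of -2.46 to -1.99 and adjusted p up to 0.119 over all 12 omissions, and it was lost without the sex term (adjusted p = 0.0752). Sdsl, a gene related in sequence, had 4.62 CPM on average in the control livers, and how reads were divided between the pair was not tested.

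The alanine transaminases had, with Tdo2 and Fah, the smallest fitted differences at 5%. Gpt was at 303, 153, 147 and 167 CPM in the control livers, at 158, 224, 192 and 217 CPM at 1%, and at 194, 124, 117 and 120.3 CPM at 5%. N979 stood above the other controls and N987 above the other 5% livers, and the ranges overlapped. Gpt2 was at 341, 379, 355 and 430.0 CPM in the control livers, at 305, 488, 395 and 409 CPM at 1%, and at 293, 226, 404 and 369 CPM at 5%, again with overlap. The differences at 5% were -0.46 ± 0.23 for Gpt (adjusted p = 0.384) and -0.24 ± 0.18 for Gpt2 (adjusted p = 0.630, edgeR's test, log2, SE). The 95% interval for Gpt2 ran from -0.63 to 0.16.

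At 1% of oil no enzyme differed from the control livers by the test. The count was 0 of 9 (0.224% of all genes were called), 0 of 9 at an unadjusted p below 0.05 (11.1% of all genes) and 0 of 9 by DESeq2 (2.17%). Of the 9, 3 had a fold change below 0 (49.9% of all genes), namely Tat (-0.68), Hgd (-0.29) and Hal (-0.04). With single livers left out Tat ran from -1.70 (without N984) to -0.40 (without N983). The others lay between 0.06 (Hpd) and 0.55 (Sds), and for all 9 the ranges of the diets overlapped (2.03% of all genes lay wholly lower and 1.83% wholly higher). The intervals are wide for the variable genes: that of Tat ran from -2.16 to 0.81 and that of Sds from -0.33 to 1.44, while that of Fah ran from -0.27 to 0.39. Both doses were set against the same 4 control livers, so their values are not independent of each other.

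Between the doses, all 9 enzymes were lower at 5% than at 1% (49.6% of all genes were). Sds alone was called, 1 of 9 against 1.33% of all genes, 0.471% in the lower direction, by edgeR's test. Hpd (-0.82 ± 0.23, adjusted p = 0.0997), Fah (-0.40 ± 0.15, adjusted p = 0.195), Gpt (-0.53 ± 0.23, adjusted p = 0.247) and Sds had an unadjusted p below 0.05, 4 of 9 against 17.8% of all genes and 7.77% in the lower direction. Every 5% liver lay below every 1% liver in Hpd, Fah and Sds, as in 3.55% of all genes, and above it in none (4.10% of all genes). Leaving out the control N979 brought Hpd under the threshold (adjusted p = 0.0474), where 2.79% of all genes were called. Tat had -1.51 ± 0.71 (adjusted p = 0.302), which ran from -2.41 without N975 (adjusted p = 0.0301) to -0.68 without N984 (adjusted p = 0.597). Without N975, Hpd (-0.98, adjusted p = 0.0407) was called as well, and so were 4.38% of all genes. A slope over 0, 1 and 5% gave 0 of 9 called (2.23% of all genes) and 7 of 9 at an unadjusted p below 0.05 (15.1%), with DESeq2 not run for it. The slopes ran from -0.42 per percent of oil for Tat (adjusted p = 0.139) to -0.04 for Tdo2 (adjusted p = 0.838, edgeR's test). The slope was called for Hgd with a stricter filter on low counts (3.16% of all genes) and for Hpd and Sds without N967 (2.69%). It was called for Sds without N984 (1.85%) and for Tat without N975 (3.21%).

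**Figure D2:**
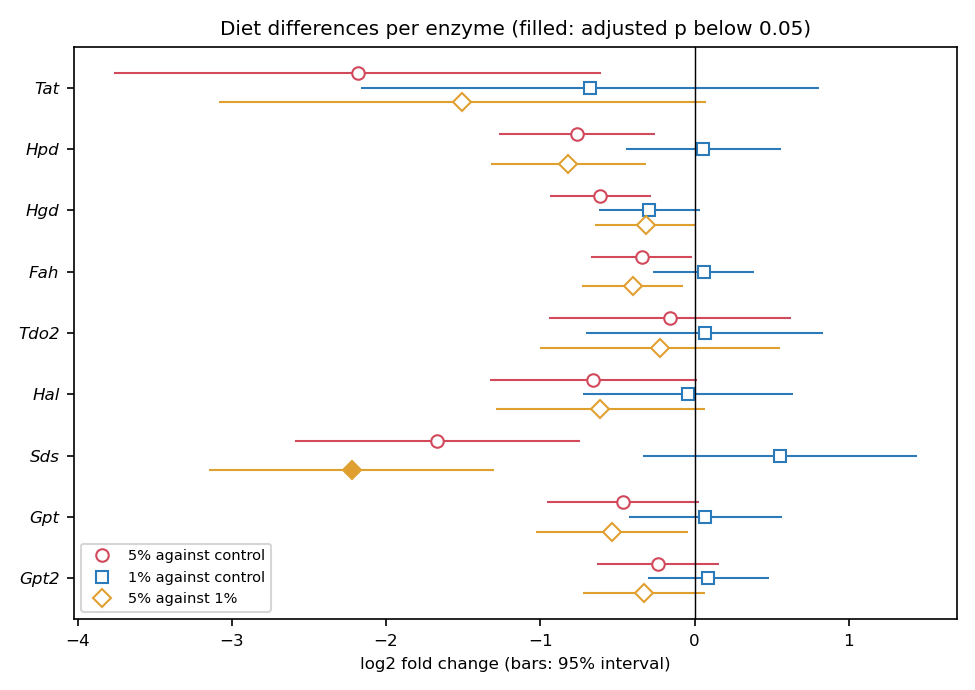
Log2 fold changes of the 9 enzymes with 95% intervals for 5% against control (circles), 1% against control (squares) and 5% against 1% (diamonds). The 5% values lie left of 0 for all 9 and the 1% values lie around 0, and the filled diamond of Sds (-2.22) is the 1 difference past the threshold.

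Females and males were compared over the 3 diets. None of the 9 was called (8.94% of all genes were), and 3 had an unadjusted p below 0.05 (28.7% of all genes) by edgeR's test; DESeq2 was not run for it. The 3 were Hpd, with a higher fitted level in females (0.49 ± 0.19, adjusted p = 0.116), and Hgd (-0.27 ± 0.12, adjusted p = 0.164) and Tdo2 (-0.78 ± 0.30, adjusted p = 0.113, edgeR's test), with lower ones. That count was near the share of all genes, so it does not set these enzymes apart. Without N980 the count was 1 (Tdo2), and 17.4% of all genes were called. A test of whether the 5% response differed between the sexes called none of the 9 and none of all genes (0%), with 1 of 9 at an unadjusted p below 0.05 (4.67% of all genes). That was Tdo2: its response was -1.02 in females and 0.62 in males, a difference of -1.64 ± 0.55 (unadjusted p = 0.0121, adjusted p = 0.784, edgeR's test). For all 9 the fitted response was lower in females than in males, as for 52.2% of all genes, and Tat had -3.30 in females and -1.39 in males. That held for 7 of the 9 without N979 and for 8 of the 9 without N988. At 1% the same test also called none, with Hal alone at an unadjusted p below 0.05 (difference -1.37, adjusted p = 1.00; 3.74% of all genes). With 2 livers per sex and diet, such tests rest on the spread pooled over the 6 groups.

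The 9 enzymes did not vary as one over the 12 livers. With each gene's log2 CPM standardized over the livers, the mean absolute distance between 2 members was smallest for Fah and Sds (0.318 SD), Hal and Gpt (0.338 SD) and Hpd and Sds (0.355 SD). The 4 largest distances all involved Tdo2, up to 1.09 SD from Gpt. By liver, the mean over the 9 was highest in the control N979 (1.01 SD above the mean of the 12 livers), followed by the 1% female N984 (0.919 SD), and lowest in the 5% female N988 (-1.44 SD), in which all 9 enzymes were below their own medians. The 1% female N983 had 7 of 9 below the median, against 2 of 9 in each of the other 1% livers. All 4 livers at 5% had a mean below 0 (-1.44 to -0.32 SD), as did the 1% female N983 (-0.35 SD) and the control male N967 (-0.23 SD). The 12 livers share their scaling and depth with every gene, so these distances are a description.

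**Figure D3:**
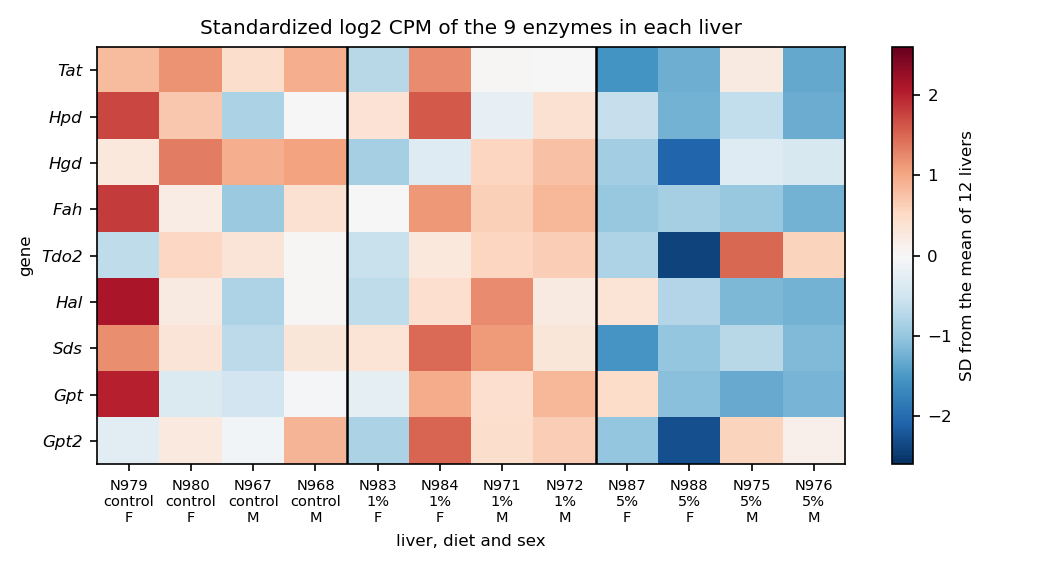
Log2 CPM of the 9 enzymes (rows) in the 12 livers (columns, by diet and sex; F female, M male), in SD from each gene's mean over the 12 livers, red above and blue below. N988 is blue in all 9 rows, N979 is darkest red in Hpd, Fah, Hal and Gpt, and the 5% males N975 and N976 are red for Tdo2.

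Reads of several enzymes fell partly on transcripts that are not annotated as protein-coding, such as retained introns. Tat reads lay on 2 protein-coding transcripts in every liver, and for Fah the noncoding part was at most 0.935%. For Hpd it was 10.8% in N979, 4.17% in N983, 5.18% in N984 and 4.35% in N988, and at most 1.48% in the other 8 livers. For Hgd it ran from 1.85% (N967) to 34.7% (N979), with 32.6% in N983 and 32.0% in N984. For Gpt it ran from 5.15% (N987) to 33.9% (N979). The shares were largest for Hal, at 30.8% (N967) to 51.8% (N988), and ran from 15.0% (N976) to 34.2% (N979) for Tdo2. For Sds and Gpt2 they were highest in N975 (11.8% and 4.37%). Of the 4 livers with more Hpd reads of this kind, all female, N979 is a control, N983 and N984 are 1% livers and N988 is a 5% liver, and they are the 4 livers with the largest noncoding share in Hgd as well. N979 is also the liver with the highest Hpd, Fah, Hal and Gpt levels. Counting protein-coding transcripts alone left 0 of 9 called at 5% against control (1.87% of all genes) and 1 of 9 (Sds) at 5% against 1% (0.665%). With the noncoding share of each library as a covariate, Hgd (-0.65, adjusted p = 0.0247) and Sds (-1.43, adjusted p = 0.0464) were called at 5% against control, along with 3.81% of all genes. Without those 4 livers none was called in either comparison (1.83% and 0.304% of all genes), with Sds at -2.13 against 1% (adjusted p = 0.170, all by edgeR's test). These 3 fits were chosen after the data had been seen. The fit without those 4 livers held no 1% female and fewer control and 5% females. For a call lost in that fit, here and below, the part of those livers cannot be told apart from that of fewer livers and lost balance between the sexes.

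**Figure D4:**
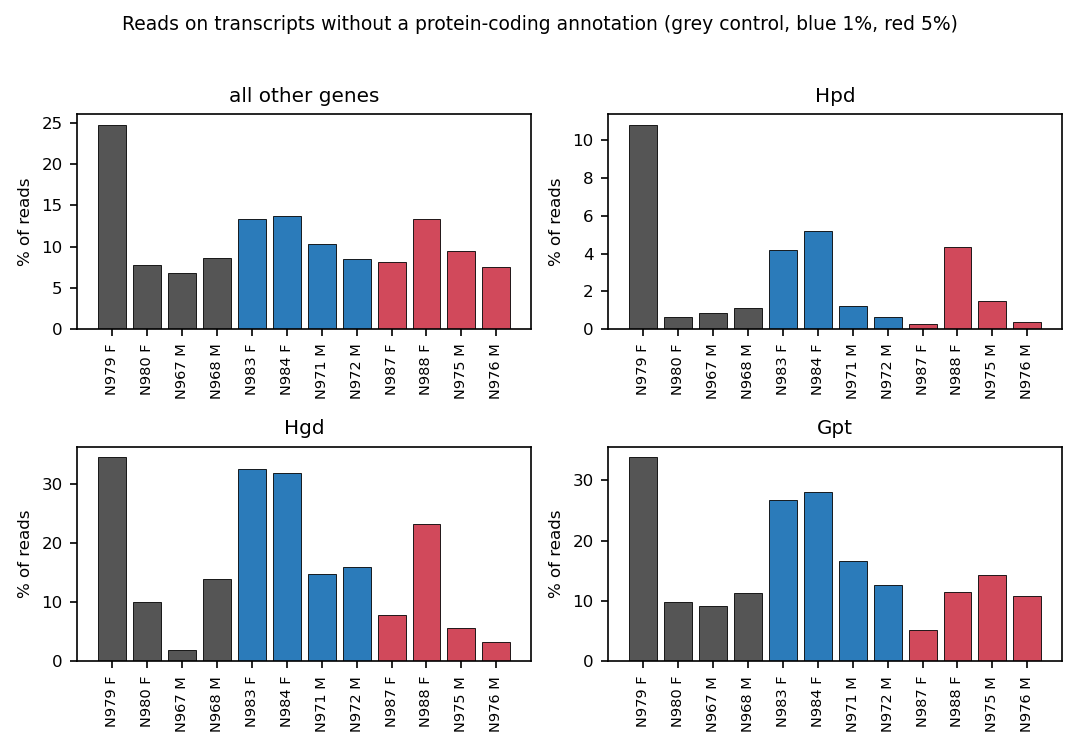
Percent of reads on transcripts without a protein-coding annotation in each liver (F female, M male; grey control, blue 1%, red 5%), for all other genes, Hpd, Hgd and Gpt. N979 has the tallest bar in all 4 panels (24.8%, 10.8%, 34.7% and 33.9%).

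Beyond the 9 enzymes, 62 genes of other amino acid steps were listed and 61 had enough reads. At 5% against control 5 of the 61 fell and none rose by edgeR's test, and 48 had a fold change below 0, with a median of -0.24. Of all genes tested, 2.46% were called, 1.27% with a lower level, and 48.5% lay below 0. The slope over the doses was called for 7 of the 61, all downward, against 2.23% of all genes: Acmsd, a kynurenine pathway decarboxylase, Gls2, a glutaminase, Uroc1, Qprt, Agxt2, Got1 and Prodh. Got1, the cytosolic aspartate transaminase, fell by 1.63 ± 0.38 on the log2 scale (adjusted p = 0.0465), from 390 ± 130 to 121 ± 38.1 CPM (SD, n = 4), with no overlap. Prodh, the first enzyme of proline breakdown, fell by 1.16 ± 0.26 (adjusted p = 0.0317), and its 5% livers lay within a narrow range (36.1 ± 1.84 CPM). Of the kynurenine steps that follow Tdo2, Kynu, kynureninase, fell by 0.82 ± 0.18 (adjusted p = 0.0326) and Qprt, which makes the NAD precursor nicotinate mononucleotide, fell by 0.65 ± 0.16 (adjusted p = 0.0435). Agxt2, a mitochondrial alanine-glyoxylate transaminase, fell by 0.71 ± 0.13 (adjusted p = 0.0125). These calls were often tied to single livers: Agxt2 lost its call without N976 (adjusted p = 0.0690), Kynu without any 1 of N980, N967, N968, N984, N987, N988 or N976 (up to 0.114), Prodh without N979, N980, N968, N987, N988 or N976 (up to 0.116), Got1 without N979, N980, N968, N983, N971, N987, N988 or N976 (up to 0.149), and Qprt without any liver but N967 (up to 0.152). All 5 lost it without the sex term (adjusted p between 0.0617 and 0.331). With only the control and 5% livers in the fit, Kynu (0.0887), Qprt (0.0758), Agxt2 (0.0633) and Prodh (0.0589) lost it, and with protein-coding transcripts alone Got1 (0.0545) and Prodh (0.0793) did. Without the 4 livers rich in the noncoding transcript Hpd-205, all but Kynu did (up to 0.164). Got1 lost it with the noncoding share as a covariate (0.0750), and Qprt with no filter (0.0815) and by limma on the deposited CPM (0.0699).

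By group at 5%, the call counts were 2 of 10 kynurenine steps, 1 of 11 tested serine, threonine and glycine steps, 1 of 5 aspartate and glutamate steps and 1 of 4 proline steps. They were 0 of 3 histidine steps, 0 of 5 lysine steps, 0 of 8 amino acid transporters and 0 of 19 branched-chain steps, of which no gene had even an unadjusted p below 0.05 (median -0.11). Over all genes tested, 2.46% were called and 14.6% had an unadjusted p below 0.05 by edgeR's test. At 1% none of the 61 was called (0.224% of all genes). For 5% against 1%, 1.33% of all genes were called, 0.471% with a lower level. Against the 1% livers, the 5% livers were lower in 3 of the 61: Got1 (-1.95 ± 0.39, adjusted p = 0.0390), Agxt2 (-0.64 ± 0.13, adjusted p = 0.0390) and Hykk, a hydroxylysine kinase (-1.16 ± 0.23, adjusted p = 0.0338). Each of these 3 was lost without any 1 of 7 or 8 livers, with adjusted p up to 0.142, 0.148 and 0.118. All 3 were lost without the sex term (0.0780 to 0.175) and without the 4 livers rich in Hpd-205 (0.170 to 0.228).

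**Figure D5:**
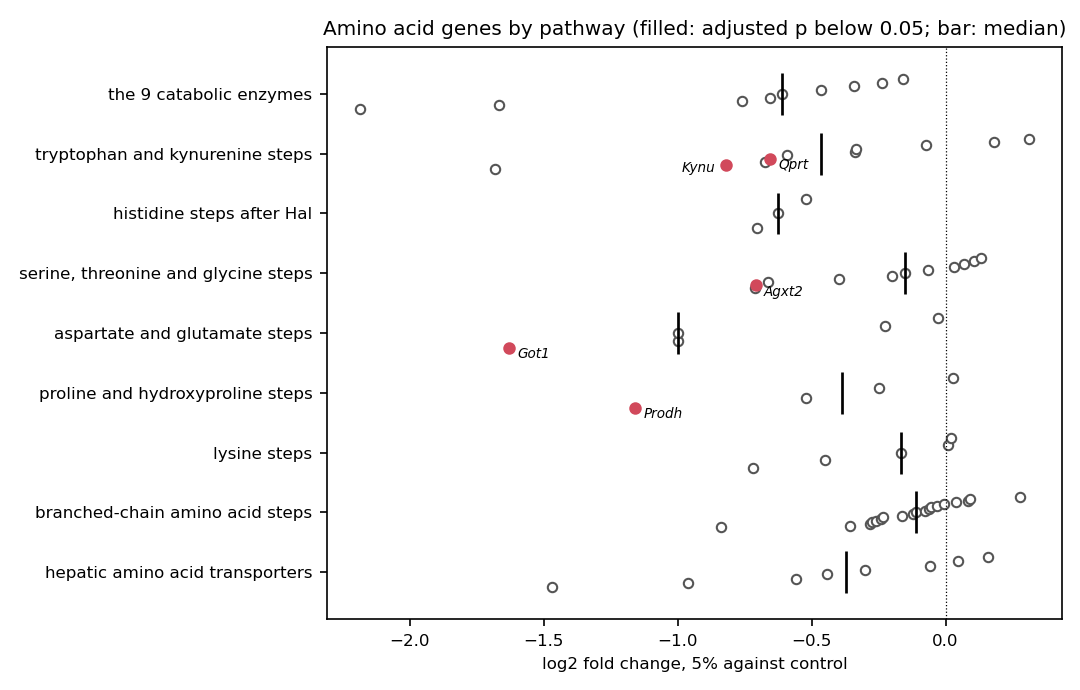
Log2 fold change at 5% against control for each tested gene (points; filled where the adjusted p is below 0.05) of the 9 enzymes, 8 further groups of amino acid genes and their medians (bars). The 5 filled points, Kynu, Qprt, Agxt2, Got1 and Prodh, all lie left of 0, and the branched-chain genes cluster near 0 with a median of -0.11.

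Known regulators of these enzymes were given for 5% against control. Over all genes tested, 2.46% were called in it, 14.6% had an unadjusted p below 0.05 by edgeR's test and 48.5% lay below 0. Of 12 regulators 1 was called at 5%: Ppargc1a, a coactivator of the fasting response, fell by 1.64 ± 0.38 (adjusted p = 0.0425), from 12.5 ± 3.25 to 4.08 ± 1.92 CPM. That call was lost without any 1 of N979, N980, N968, N983, N971, N972, N987, N988 or N976 (adjusted p up to 0.142), without the sex term (0.0824), with protein-coding transcripts alone (0.116) and without the 4 livers rich in Hpd-205 (0.0933). Nr3c1, the glucocorticoid receptor, had -0.02 ± 0.21 (adjusted p = 0.982), and Klf15, a fasting-induced factor that acts on amino acid breakdown genes, had -0.46 ± 0.33 (adjusted p = 0.589). Of the 12, 7 lay above 0, with a median of 0.13. The largest value was that of Onecut1, a hepatocyte transcription factor named after its value was seen, which had 3.09 ± 0.78 (adjusted p = 0.0717) and means of 3.14 CPM in the control and 24.6 CPM in the 5% livers. Of 9 glucocorticoid-responsive genes none was called (2 at an unadjusted p below 0.05, median -0.41). Of 5 tested genes that respond to glucagon or fasting, 4 lay below 0 (median -1.89) and 3 had an unadjusted p below 0.05 by edgeR's test. Pck1 and Igfbp1, named after their values were seen, were among the lower ones. Pck1 had means of 1577 ± 518 CPM in the control and 467 ± 618 CPM in the 5% livers (SD, n = 4). Those of Igfbp1 were 177 ± 117 and 28.2 ± 15.9 CPM. Of the 5 genes 1 was called: Irs2, the insulin receptor substrate, fell by 1.29 ± 0.23 (adjusted p = 0.00930, edgeR's test) against control. That call held without each of the 12 livers and was lost without the sex term (adjusted p = 0.0948) and without the 4 livers rich in Hpd-205 (adjusted p = 0.0538). Irs2 was also lower at 5% than at 1% (-1.18 ± 0.23, adjusted p = 0.0304, edgeR's test), a call lost without any 1 of N983, N984, N971, N987, N988 or N976 (adjusted p up to 0.0954) and without the sex term (adjusted p = 0.175). At 1% against control none of these regulators and responsive genes was called (0.224% of all genes).

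Markers of liver zones and of other cells were measured beside them. For 5% against control, 2.46% of all genes were called, 14.6% had an unadjusted p below 0.05 by edgeR's test and 48.5% lay below 0. Sds and Hal are known as enzymes of periportal hepatocytes. Of 6 periportal markers 1 was called at 5%: Ass1, a urea cycle enzyme, fell by 1.32 ± 0.21 (adjusted p = 0.00646). The summed level of the 6 was 4869 to 6647 CPM in the control livers and 2497 to 4210.2 CPM in the 5% livers. Ass1 is the largest part of that sum, with a mean of 3329 CPM in the control and 1328 CPM in the 5% livers. Cyp2f2 had 0.02 ± 0.23 (adjusted p = 0.990), Hsd17b13 -0.19 ± 0.29 (adjusted p = 0.841) and Pigr -0.32 ± 0.17 (adjusted p = 0.439, edgeR's test). Gls2 had means of 382 ± 146 CPM in the control and 188 ± 48.8 CPM in the 5% livers (SD, n = 4). Those of Aldh1b1 were 58.7 ± 16.7 and 36.2 ± 22.1 CPM. Fold changes below 0 were fitted for 5 of the 6 periportal markers (median -0.49, 2 at an unadjusted p below 0.05 by edgeR's test). Of 8 pericentral markers none was called, and their sums overlapped (6555 to 8143 and 7045 to 11286 CPM). Cyp2e1 is the largest part of that sum, with a mean of 5330 CPM in the control and 7579 CPM in the 5% livers. Fold changes below 0 were fitted for 5 of the 8 (median -0.16, 2 at an unadjusted p below 0.05 by edgeR's test). Oat had means of 858 and 431 CPM, with no overlap. Of the 7 Kupffer cell markers, 6 of the sinusoidal endothelium, 6 of stellate cells, 5 of cholangiocytes and 5 of lymphocytes none was called. Fold changes below 0 were fitted for all 7 Kupffer cell markers (median -0.49), 5 of the 6 endothelial markers (median -0.47, 2 at an unadjusted p below 0.05), 5 of the 6 stellate cell markers (median -0.29) and all 6 hepatocyte markers (median -0.36, 2 at an unadjusted p below 0.05). Of the 3 blood markers 1 was called, Alas2 (-1.17), and their sum was 183 to 350 CPM in the control livers and 80.8 to 139 CPM in the 5% livers. Gls2 and Oat stand both among these markers and among the amino acid steps. The part of these markers in the enzyme differences was not tested.

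The authors' deposited table of 261 genes, whose contrast its header does not name, holds none of the 9 enzymes.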

How the data were processed

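Livers of 12 mice were measured by stranded poly(A) RNA sequencing, per the labels' protocols. The authors deposited estimated counts per gene and per transcript; kallisto, edgeR, limma and GRCm39 are named, without roles or versions, per the submitters' processing notes, and the use of strand in counting is not given in the sources used here, so reads of overlapping or antisense genes cannot be told apart. The authors also deposited CPM for part of the genes, used in 1 alternative, and a table with log2 fold changes and p-values per gene (p-value and log2 columns of an unnamed contrast), used only to look up the enzymes. Gene symbols came from Ensembl and RefSeq tables and matched 48845 gene IDs; 1 of 173 listed symbols matched no gene.

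Estimated counts were rounded, filtered for low counts with filterByExpr (6 groups, each a diet and a sex), scaled by TMM and fitted over all 12 libraries with diet and sex by edgeR 4.0.16 (robust quasi-likelihood F-test, 2-sided, R 4.3.3). Benjamini-Hochberg adjustment ran over all 13814 genes, with a threshold of 0.05. The slope was taken over the oil percentage, and sex differences in response used the 6 groups. The 95% intervals come from the same fit. Alternatives were RLE and upper-quartile scaling, no filter, a filter of 50 reads in 4 libraries, DESeq2 1.42.0, limma 3.58.1 (voom, and trend on deposited CPM with a pseudocount of 0.5), no sex term, 2 diets only, transcript sums, each liver left out and 3 later ones. Named genes are the 9 enzymes, every gene of the other lists past the threshold in a diet contrast (at most 4 per list and contrast), Klf15 and Nr3c1; histidine genes, markers and clock genes are named as context. Transcript types and lengths are from GENCODE M21 (97.6% of transcripts matched), and promoters from RefSeq. The enzymes and lists were chosen with earlier results of these data known. One group of listed genes is not reported here by name; it is counted among the 62 genes of other steps.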

Additional observations from a re-analysis of the deposited data

Results flagged for a closer look

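Of the 27 sets of 4 livers (9 enzymes in 3 diets), 3 held a liver that lay far from the other 3 by Dixon's gap ratio, the gap to the nearest liver divided by the range of the set; chance flags about 1 set in 20. For Tat at 5%, N975 (916 CPM) had a ratio of 0.930. For Gpt in the control livers, N979 (303 CPM) had 0.873, and for Gpt at 5%, N987 (194 CPM) had 0.903.

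For Tdo2 the 5% females (473 and 221 CPM) lay below the control females (509 and 899 CPM), and the 5% males lay above the control males. The fitted 5% response differed by -1.64 on the log2 scale between the sexes. The difference itself had an unadjusted p of 0.0121 and an adjusted p of 0.784 by edgeR's test.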

How the results depend on the processing

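All 9 enzymes stayed below 0 at 5% against control under RLE and upper-quartile scaling, no filter, the stricter filter, 2 diets only, transcript sums, voom, limma on the deposited CPM, DESeq2, protein-coding transcripts only and the noncoding covariate; without the sex term Tdo2 had 0.048, and without the 4 livers rich in the noncoding transcript Hpd-205 it had 0.10. The counts of enzymes called are given here with the share of all genes called in the same fit in brackets. At 5% against control the count was 1 (Hgd) with upper-quartile scaling (2.41%), the stricter filter (3.82%) and voom (2.48%). It was 1 (Tat) with limma on the deposited CPM (4.04%). With no filter it was 3, Tat, Hpd and Sds (3.98%), and with DESeq2 3, Hpd, Hgd and Sds (5.42%). The noncoding covariate gave 2, Hgd and Sds (3.81%), and single livers left out gave 0 to 2 (1.04% to 3.60%). For 5% against 1% it was 3 with no filter (5.02%), 2 with DESeq2 (5.32%), 0 without the sex term (0.0579%) and 0 without the 4 livers (0.304%). With single livers left out it was 0 to 3 (0.0652% to 4.38%). For the slope it was 1, Hgd, with the stricter filter (3.16%) and 0 to 2 with single livers left out (0.608% to 3.21%). For sex it was 0 to 1 with single livers left out (4.49% to 17.4%). At 1% against control it was 0 throughout (0.0724% without the sex term to 2.56% with no filter). The count of all genes called at 5% against control was 340, against 107 without the sex term, 1011 with no filter, 749 with DESeq2 and 526 with the noncoding covariate. The cause of these shifts was not tested.

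Values near 0 changed sign. With single livers left out, Tdo2 ran from -0.48 to 0.18 at 5% against control and from -0.56 to 0.10 at 5% against 1%, where it had 0.087 without the 4 livers. At 1% against control the ranges were -0.093 to 0.27 for Hpd, -0.035 to 0.18 for Fah, -0.12 to 0.41 for Tdo2, -0.30 to 0.29 for Hal, -0.045 to 0.33 for Gpt and -0.094 to 0.18 for Gpt2. Hal also had 0.029 with limma on the deposited CPM, 0.037 with the noncoding covariate and 0.71 without the 4 livers, and Gpt2 had -0.019 without them. No paired analysis was possible because no replicate number is shared between diets. With 4 livers per diet, the 95% interval of Tat at 1% spans -2.16 to 0.81, so differences of that size could not be told from 0.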

Other observations

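Genes outside the 9 enzymes whose standardized levels lay closest to those of an enzyme over the 12 livers were looked up among 7922 candidates, after the values had been seen. For Sds these were Upp2 (a mean absolute distance of 0.236 SD), Clec2d (0.257 SD) and Arl3 (0.278 SD). For Tat they were Cdkn1a (0.300 SD), Rhobtb1 (0.315 SD) and Mknk2 (0.318 SD). For Hgd they were Ankrd33b (0.218 SD), Sesn3 (0.266 SD) and Agpat2 (0.295 SD). The closest of these candidates to Hal were 3 genes of amino acid metabolism: Gls2, the liver glutaminase (0.343 SD), Amdhd1 of the same histidine pathway (0.353 SD) and Agxt, a peroxisomal transaminase (0.358 SD). All points share libraries and scaling, so these distances are a description.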
